A study of Mus musculus with 26 samples.

Results

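The contacts of the lnc-Crot locus in mouse liver were compared between CT18 and CT6 with circular chromosome conformation capture (4C), using the 6 4C libraries among the 26 libraries of the series. The 6 libraries were those titled as 4C at CT6 (3 libraries) and at CT18 (3 libraries), and no measured value was used to choose them. All came from livers of wild-type C57BL/6 mice, 8 weeks old, that had been moved to complete darkness 2 days before sampling. CT0 is the hour at which lights had come on, so CT6 falls in the subjective day and CT18 in the subjective night. The sex of the mice is not given in the labels, and whole liver mixes hepatocytes with other cells, so a contact cannot be assigned to a cell type. The libraries hold genomic DNA only, and the tissue could not be checked against marker genes in them. The labels name 3 mice per time and number the libraries, without saying which mouse gave which library, so the p-values measure the spread between these libraries.

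In 4C, chromatin is cut inside the nucleus with a restriction enzyme, here HindIII, and ends that lie close in space are ligated. A second enzyme, here DpnII, trims the products, which are closed into circles and amplified from primers in 1 chosen fragment, the bait. Reads then count how often each other HindIII fragment was joined to the bait. Counts usually fall steeply with distance along the chromosome, and single distant fragments are captured rarely, so that each one in a library can stand for few ligation events amplified many times. The deposited reads carry no molecular identifiers, and a count is therefore not a number of independent contacts. The labels name lnc-Crot, a long noncoding RNA, as the locus. Its protein-coding namesake Crot encodes carnitine O-octanoyltransferase, which acts on medium-chain fatty acids from peroxisomal oxidation. In the liver clock, activators such as BMAL1 and repressors such as REV-ERBα drive transcription in opposite phases of the day, and CT6 and CT18 are 12 h apart.

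The deposited counts covered fragments of chromosome 5 of the mouse build mm9. Counts per library were 876104, 1852389 and 864391 at CT6 (replicates 1, 2 and 3) and 2671527, 1935157 and 1585870 at CT18. Depth therefore differed between the times, with CT6 replicate 2 alone in the range of the CT18 libraries. In any of the 6 libraries together 2610 fragments were listed (median length 2214.5 bases), of which 204 were listed in all 6 and 1063 in 1. Fragments not listed were taken as 0 counts. A library at 0 counts allows a share of up to 0.000112% to 0.000347% of its total (3 counts, counting error only).

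The bait was taken as the fragment with the highest count, chr5:9042518-9044511 (mm9), which was the highest in 5 of the 6 libraries. In CT18 replicate 1 the fragment on the other side of its HindIII site, chr5:9044518-9046289, was higher, with 257830 counts against 252366. Which of these neighbours carried the primers cannot be told from the counts, and distances were measured from the HindIII site that they share. The bait took 14.5%, 12.9% and 16.3% of the library at CT6 and 9.45%, 11.5% and 11.8% at CT18. All 3 CT18 shares were below all 3 CT6 shares, with means of 14.5% ± 1.72 and 10.9% ± 1.27 (SD, n = 3). The exact permutation test (two-sided) gave p = 0.1, which is the smallest p that 3 against 3 libraries allow, and an adjusted p of 0.35 over the 7 distance classes below. The neighbour took 7.77%, 9.53% and 9.21% at CT6 and 9.65%, 11.2% and 7.38% at CT18, and there the groups overlapped. By edgeR the bait stood at log2 -0.42 ± 0.24 (SE; CT18 relative to CT6) with an adjusted p of 0.236, and the neighbour at 0.09 ± 0.29 with an adjusted p of 0.797.

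Before the times are compared, libraries that shared fragments need naming. Many fragments beyond 1 Mb from the bait had high counts in 1 library and a few counts in others. Of the fragments over 1 Mb away that held under 10 counts in a library, 73.8% to 81.5% held at least 100 counts in another library. The same share over all distant fragments is not given here, so an excess cannot be read from these values. The closest relation was between CT18 replicates 1 and 2. All 208 distant fragments with at least 1000 counts in replicate 1 and fewer in replicate 2 were listed in replicate 2, where they held 1.31 counts per 100 counts of replicate 1. Across these 208 fragments the log10 counts of the 2 libraries correlated with r = 0.94, which is a description across fragments. In the opposite direction 153 of 161 fragments were listed, with 0.144 counts per 100. CT6 replicates 2 and 3 shared 87.9% (152 of 173) and 87.6% (78 of 89) of such fragments in the 2 directions. The other 26 ordered pairs of libraries, most of them between the times, shared 24.4% to 63.5%. The cause of this sharing was not tested. Several results below, the main counts by edgeR among them, are also given with shared low counts set to 0. This means any count beyond 100 kb from the bait under 5% of the same fragment's highest count in another library. DESeq2 was not run in that setting.

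**Figure D1:**
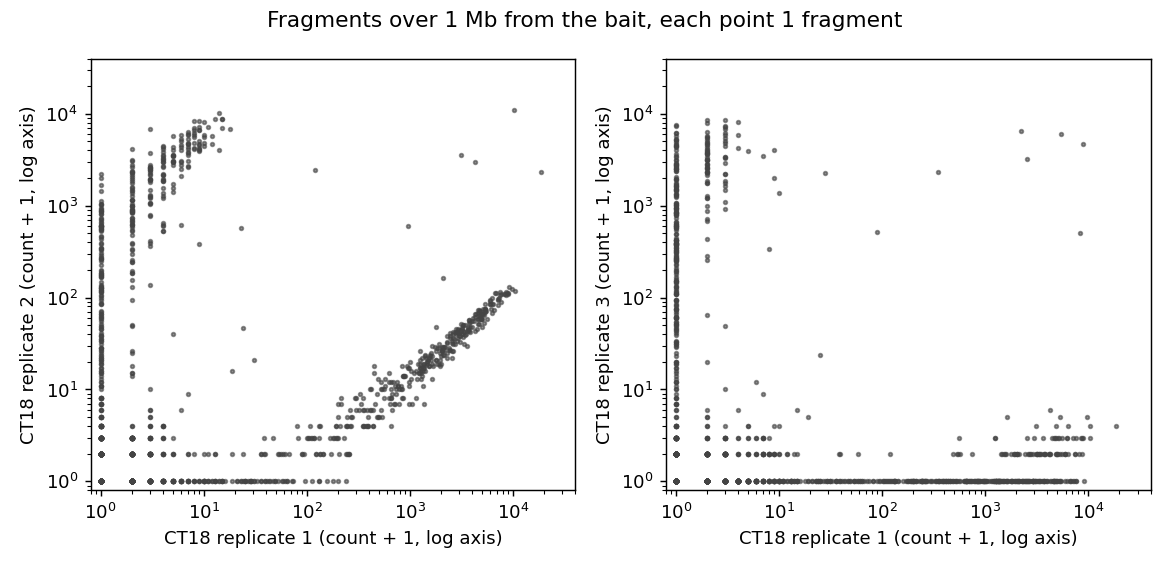
Counts of every listed fragment over 1 Mb from the bait in CT18 replicate 1 (x axis) against CT18 replicate 2 (left) and CT18 replicate 3 (right), as count plus 1 on log axes. In the left plot the fragments with at least 1000 counts in replicate 1 lie along a line at about 1.31 counts per 100, and few fragments are high in both libraries of either plot.

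Across the whole of chromosome 5, 0 of 815 windows of 100 kb passed an adjusted p of 0.05 between CT18 and CT6 by edgeR's quasi-likelihood test (0.0% called, smallest adjusted p = 0.259). At an unadjusted p under 0.05, 88 windows were counted (10.8% of those tested), 14 higher (1.72%) and 74 lower (9.08%) at CT18. With 1 library left out it was 14 to 50 windows, the fewest without CT18 replicate 1. The split depended on the scaling, with 0 higher and 138 lower under TMM factors, under which the median log2 difference of all windows moved from 0.70 to -0.16. DESeq2, run with its own scaling between libraries and not with the library total, split 91 windows into 47 higher and 44 lower. Under that scaling the median log2 difference was -1.16. With shared low counts set to 0, the number by edgeR at an unadjusted p under 0.05 fell from 88 to 15 windows (1.84%). In that setting 0 windows passed the adjusted threshold by edgeR. DESeq2, which gave no adjusted p to 608 of the 815 windows, called 61 windows, 25 higher and 36 lower. Of these 61 windows, 5 had counts in 1 library alone and 20 in all 6, and the number with at least 1000 counts in 0, 1, 2 and 3 libraries was 11, 19, 27 and 4. The smallest adjusted p by DESeq2, 3.4e-09, went to windows with counts in 1 library alone. Among them, chr5:14100001-14200000 held 81, 0 and 0 counts at CT6 and 0 in each CT18 library. At the level of single fragments 0 of 1851 passed by edgeR (0.0% called). At an unadjusted p under 0.05 there were 214 (11.6%), 44 higher (2.38%) and 170 lower (9.18%). With shared low counts set to 0 there were 38 of 1847 fragments (2.06%), 3 higher and 35 lower, and 0 were called. DESeq2 called 85 fragments (50 higher, 35 lower) and gave no adjusted p to 1615 of the 1851. The spread between libraries was large: the biological coefficient of variation estimated by edgeR was 2.52 for windows and 2.78 for fragments. With such a spread, the count of 0 does not show that the times were alike.

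The windows with the smallest p were those where 1 or 2 libraries of a time held over 1000 counts. Lower at CT18, chr5:47800001-47900000, 38.8 Mb from the bait, held 2, 16 and 10563 counts at CT6, and at CT18 0, 1 and 1 (adjusted p = 0.259). The counts there were high in CT6 replicate 3 alone. Window chr5:103200001-103300000, 94.2 Mb away, held 9478, 4 and 1162 counts at CT6, and at CT18 1, 2 and 0. Window chr5:67900001-68000000 held 5750, 6 and 3 at CT6 and 0 in every CT18 library. Each of these contrasts thus rested on 1 or 2 CT6 libraries. Higher at CT18, chr5:18900001-19000000, 9.91 Mb away, held 8, 7 and 7 counts at CT6, and at CT18 10275, 12930 and 2. It was high in CT18 replicates 1 and 2, and held 2 counts in replicate 3. Window chr5:23900001-24000000 held 0, 2 and 1 counts at CT6, and at CT18 1, 3 and 9066, and chr5:9700001-9800000, 0.71 Mb away, held 1, 1 and 0 against 3953, 6625 and 2. None of the 3 was high in all CT18 libraries. The adjusted p-values here are by edgeR. DESeq2, with its own scaling, called chr5:103200001-103300000 (adjusted p = 3.8e-07) and chr5:9700001-9800000 (adjusted p = 0.013). It did not call chr5:18900001-19000000 (adjusted p = 0.0685), and gave no p to the others named in this paragraph. No fold change is given for these windows, since a time whose libraries lie near 0 counts makes the fitted value depend on the prior count.

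The distant single fragments with the smallest p had the same form. Fragment chr5:47823675-47823840, only 166 bases long, carried all 10563 counts of its window in CT6 replicate 3. Fragment chr5:59277571-59281064 held 2, 17 and 10401 counts at CT6, and at CT18 3, 0 and 0. Fragment chr5:86498249-86504274 held 10522, 3 and 5 against 0, 3 and 2. On the side of higher counts at CT18, chr5:9164533-9165202 is the nearest to the bait. It held 5, 4 and 2 counts at CT6, and at CT18 12502, 412 and 5909, so that every CT18 library was above every CT6 library (adjusted p = 0.236 by edgeR). The share of all fragments tested that separated in this way is not given here. Fragment chr5:18950900-18954739 held 8, 7 and 7 against 10272, 11092 and 2, and chr5:37542501-37544619 held 3, 6 and 8 against 18657, 2302 and 3. In both of these CT18 replicate 3 was at or under 3 counts, the floor of detection. DESeq2, with its own scaling, called the fragments named as higher at CT18, with adjusted p-values of 0.00295, 0.0281 and 0.0239 in the order named. It gave no p to those named as lower.

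Of the 815 windows tested, 115 (14.1%) had shares that did not overlap between the times, 55 higher at CT18 (6.75%) and 60 lower (7.36%). Windows over 1 Mb away made up 110 of these, 52 higher and 58 lower, and many of them differed by a few counts. With shared low counts set to 0, 25 of the 815 windows did not overlap (3.07%), 14 higher and 11 lower. Requiring at least 1000 counts in all 3 libraries of a time and in none of the other left 4 windows beyond 1 Mb, 2 for each time, which were singled out after their values were seen. For CT6 they were chr5:6900001-7000000 (4923, 2902 and 1051 counts at CT6; 23, 9 and 0 at CT18) and chr5:23100001-23200000 (1364, 2179 and 6011; 5, 731 and 1). For CT18 they were chr5:6700001-6800000 (1, 751 and 3 at CT6; 2724, 2745 and 2091 at CT18) and chr5:65600001-65700000 (1, 1 and 1; 1374, 4288 and 1979). Their adjusted p-values by edgeR were 0.259, 0.273, 0.546 and 0.259, in the order named. DESeq2 called 3 of the 4, the first with an adjusted p of 4.5e-06, the second with 0.00961 and the fourth with 0.00616. Smaller adjusted p-values by DESeq2 went to windows with counts in 1 library alone (above). Of the 4 windows, the first and the third lie on the same side of the bait, 2.09 and 2.29 Mb towards the chromosome start.

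Grouped by distance, the bait itself and the fragments over 50 Mb away had the larger mean share at CT6, and the 5 classes between them the larger mean share at CT18. Fragments over 50 Mb away took 20.8%, 12.6% and 22.4% of the library at CT6 and 8.44%, 11.8% and 11.2% at CT18. The groups did not overlap, with means of 18.6% ± 5.27 and 10.5% ± 1.80 (SD, n = 3; exact permutation p = 0.1, adjusted p = 0.35). CT6 replicate 2, the deepest of its group at 12.6%, lay nearest to the CT18 libraries. Depth moved with this result, and its part in it was not tested. With the bait and its neighbour left out of the total, the shares over 50 Mb were 26.7%, 16.2% and 30.1% at CT6 and 10.4%, 15.3% and 13.9% at CT18 (exact p = 0.1), and they again did not overlap.

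Fragments 10 to 100 kb away took 25.5%, 24.2% and 15.8% at CT6 and 29.7%, 24.3% and 29.6% at CT18. CT6 replicate 3 was low and the groups overlapped (means 21.8% ± 5.26 and 27.9% ± 3.11, exact p = 0.2, adjusted p = 0.35). The difference in means, 6.06 percentage points, was 3.04 without CT6 replicate 3. Within 10 kb, the neighbour included, the share was 12.2% ± 1.57 at CT6 and 13.8% ± 1.66 at CT18 (exact p = 0.2). Between 100 kb and 1 Mb it was 14.0% ± 1.99 and 15.2% ± 0.93 (exact p = 0.5). From 1 to 10 Mb it was 6.998% ± 1.05 and 8.19% ± 0.89 (exact p = 0.3), and from 10 to 50 Mb 11.9% ± 1.71 and 13.4% ± 1.19 (exact p = 0.3). In these 4 classes the CT18 mean was the higher, by less than the spread between libraries of 1 time or close to it, and the groups overlapped.

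**Figure D2:**
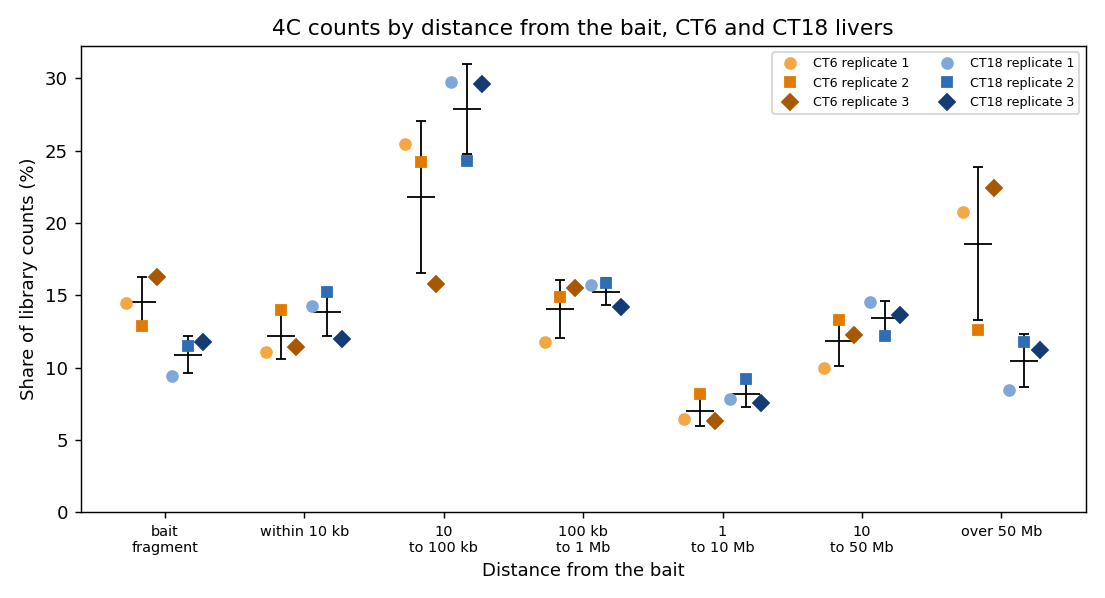
Share of each library's counts (y axis, percent) in 7 classes of distance from the bait (x axis), 1 point per library, with the mean and SD of the 3 libraries of each time in black. The bait fragment and the class over 50 Mb are the classes in which the 3 CT6 points lie above the 3 CT18 points, at 12.6% to 22.4% against 8.44% to 11.8% over 50 Mb.

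Neither the side of the bait nor the fall with distance from 100 kb to 50 Mb separated the times. Of the counts outside the bait, with the neighbour counted towards the chromosome end, 33.7%, 37.7% and 28.2% lay towards the chromosome start at CT6 and 38.0%, 34.3% and 37.2% at CT18 (exact p = 0.3). The difference in means, 3.30 percentage points, ran from 0.811 (without CT6 replicate 3) to 5.52 (without CT6 replicate 2) with 1 library left out. Every library thus held more counts on the side of the chromosome end, which is also the longer side. The slope of log10 counts per kb on log10 distance, between 100 kb and 50 Mb towards the chromosome end, was -0.62, -0.74 and -0.72 at CT6 and -0.69, -0.82 and -0.75 at CT18 (means -0.69 ± 0.06 and -0.75 ± 0.06, exact p = 0.4). Over 100 kb to 10 Mb alone the difference between CT18 and CT6 turned from -0.06 to 0.12 (exact p = 0.1). That is the smallest p that 3 against 3 libraries allow, so over this shorter range the slopes of the times did not overlap. Over 1 to 50 Mb the difference was -0.33 (exact p = 0.2). With 1 library left out, the difference over 100 kb to 50 Mb ran from -0.09 (without CT18 replicate 1) to -0.02 (without CT6 replicate 1). In that range CT6 replicate 3 had a bin near 2.24 Mb at log10 -7.41 of its counts outside the bait per kb, against -5.69 to -5.40 in the other 5 libraries. The fall was not even in every library. CT6 replicate 1 rose from log10 -5.64 at 0.562 Mb to -4.81 at 1.12 Mb and stood at -5.89 at 4.47 Mb, and CT18 replicate 2 went from -5.09 to -5.74 between the latter distances. At 8.91 Mb the 6 libraries lay between log10 -5.83 and -5.28, and at 35.4 Mb between -5.49 and -5.37. Between these distances CT6 replicates 1 and 2 and CT18 replicate 1 rose and the others fell, so the libraries had no fall in common there. The slope from 100 kb to 50 Mb therefore does not describe an even fall.

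**Figure D3:**
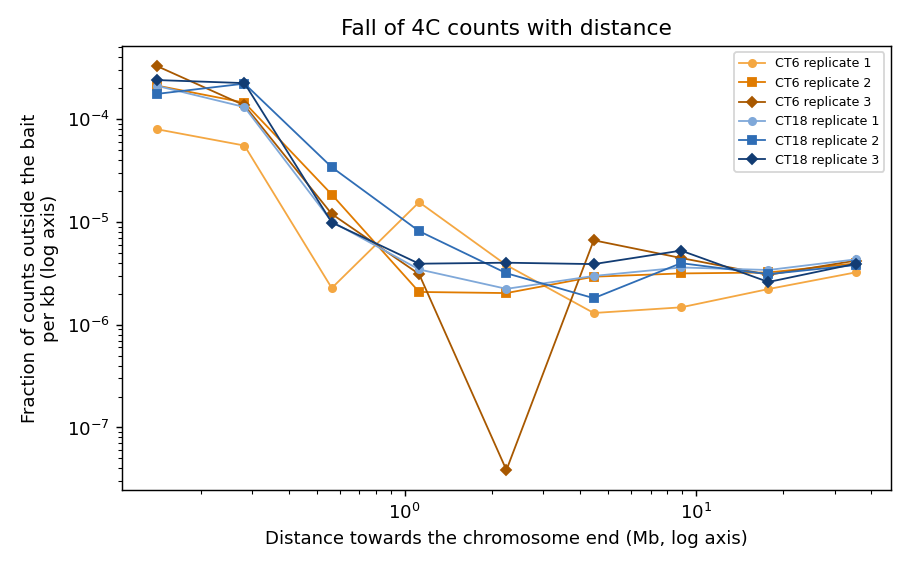
Fraction of a library's counts outside the bait per kb (y axis, log) against distance towards the chromosome end (x axis, log), 1 line per library. Each line is far lower at 35.4 Mb than at 0.141 Mb, the lines move up and down between 0.5 and 10 Mb, and CT6 replicate 3 has its lowest bin near 2.24 Mb.

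Within 1 Mb of the bait the 6 libraries resembled each other. Across the 20 windows in this range, Spearman's rho between libraries was 0.72 to 0.82 within CT6, 0.76 to 0.85 within CT18 and 0.59 to 0.84 between the times (a description across windows that share the fall with distance). The window of the bait, chr5:9000001-9100000, took 39.1%, 40.6% and 36.5% of the library at CT6 and 39.3%, 42.0% and 39.7% at CT18. These values overlapped (log2 0.06 ± 0.06, adjusted p = 0.452). Under TMM scaling, whose factors ran from 0.403 to 1.66, the same window was called lower at CT18 (log2 -1.20, adjusted p = 0.000417). It was the one window called with that scaling. The window next towards the chromosome start, chr5:8900001-9000000, took 10.4%, 9.18% and 8.44% at CT6 and 11.2%, 9.004% and 12.2% at CT18. Towards the chromosome end, chr5:9100001-9200000 took 5.17%, 4.06% and 2.90% against 5.85%, 3.37% and 4.80%. Neither window separated the times.

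Of the 20 windows within 1 Mb, 3 had higher shares in every CT18 library than in any CT6 library, and 2 had lower shares, beside 6.75% and 7.36% of all windows tested. Windows chr5:8600001-8700000 and chr5:8700001-8800000, next to each other on the side of the chromosome start, were among the 3 (the other was chr5:9700001-9800000, above). The former took 1.05%, 0.804% and 0.385% at CT6 and 1.40%, 1.09% and 1.14% at CT18, and was not called (log2 0.70 ± 1.17, adjusted p = 0.666). The latter took 0.115%, 0.364% and 0.262% against 1.07%, 0.517% and 0.796% (log2 1.69 ± 1.74, adjusted p = 0.458). In chr5:9700001-9800000 the separation rested on 2 counts in CT18 replicate 3 (0.000126%) against 1 count in CT6 replicate 1 (0.000114%). Both lie under 3 counts, the floor of detection. The windows lower at CT18 were chr5:8100001-8200000 (0.978%, 0.623% and 2.30% against 0.578%, 0.0300% and 0.225%; adjusted p = 0.259) and chr5:8500001-8600000 (0.774%, 1.005% and 0.911% against 0.562%, 0.565% and 0.126%; adjusted p = 0.591). On that side the 2 lower windows lay farther from the bait than the 2 higher ones, and none passed the test. With shared low counts set to 0, 4 of the 20 windows did not overlap (20.0%), 2 higher and 2 lower, beside 3.07% of all 815 windows in that setting. Most distant fragments were listed in a single library in that setting, so near and distant windows are not alike in this count.

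**Figure D4:**
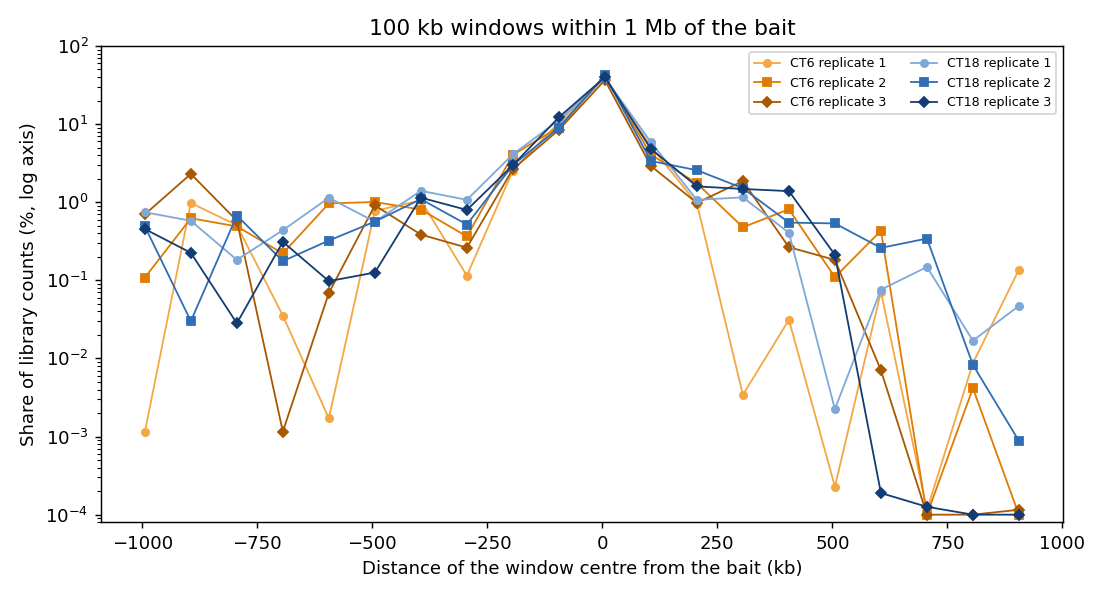
Share of each library's counts (y axis, percent, log; values under 0.0001% are drawn at 0.0001%) in the 20 windows of 100 kb within 1 Mb of the bait (x axis, kb), 1 line per library. The lines run together up to about 200 kb from the bait, where the bait's window holds 36.5% to 42.0%, and spread apart beyond it.

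Among single fragments near the bait, the highest after the bait and its neighbour was chr5:9030869-9039675, which is 8807 bases long. It took 1.78%, 3.50% and 1.89% of the library at CT6 and 3.34%, 3.22% and 3.37% at CT18. CT6 replicate 2 reached the CT18 level, so the groups overlapped (adjusted p = 0.484). The fragment chr5:8985098-8993393 took 0.00479%, 0.905% and 0.537% at CT6 and 1.63%, 2.22% and 2.30% at CT18. All 3 CT18 libraries were above all 3 CT6 libraries there (means 0.483% ± 0.453 and 2.05% ± 0.366), and the unadjusted p was 0.0405 with an adjusted p of 0.236 by edgeR. CT6 replicate 1 held 42 counts on this fragment, against 4645 to 43518 in the other 5. It was singled out from the 10 highest fragments within 1 Mb after its values were seen. On the side of the chromosome end, chr5:9057755-9060313 took 1.96%, 1.12% and 0.405% against 1.65%, 2.38% and 1.90%, and chr5:9054055-9057704 took 1.499%, 1.45% and 0.296% against 1.60%, 0.798% and 1.98%. In each of these CT6 replicate 3 was the lowest library and the groups overlapped. The adjusted p-values of the 10 highest fragments lay between 0.236 and 0.966.

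Beyond 1 Mb the libraries had few high fragments in common. Of 836 fragments over 1 Mb away that held at least 1000 counts in any library, 806 (96.4%) did so in 1 library only, 329 of them in a CT6 library and 477 in a CT18 library. This limit is a count and not a share: 1000 counts are 0.0540% to 0.116% of a CT6 library and 0.0374% to 0.0631% of a CT18 library, so the split between the times moves with depth. The remaining 30 did so in 2 libraries, 18 times in libraries of the same time and 12 times in libraries of different times, and 0 did so in 3 or more. These high fragments carried 87.9% to 92.5% of a library's counts beyond 1 Mb. The number of them per library was 83, 176 and 92 at CT6 and 212, 165 and 138 at CT18. Their median count was alike across libraries, 2762.5 to 3146.5, whereas the total count of a library varied more widely.

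Beyond 10 kb the share of high fragments found in a single library rose with distance. It was 25.0% of the 4 fragments within 10 kb, 7.81% of 64 fragments at 10 to 100 kb, 60.6% of 203 at 100 kb to 1 Mb, 92.4% of 197 at 1 to 10 Mb, 97.2% of 321 at 10 to 50 Mb and 98.1% of 318 over 50 Mb. At 10 to 100 kb, 14 fragments held at least 1000 counts in all 6 libraries. High fragments over 1 Mb away were close in length to the others at that distance, with medians of 2386.5 and 2212 bases. Across the 795 windows over 1 Mb away that were tested, Spearman's rho was 0.11 to 0.42 within CT6, 0.15 to 0.59 within CT18 and 0.08 to 0.18 between the times. The highest values, 0.59 and 0.42, were those of CT18 replicates 1 and 2 and of CT6 replicates 2 and 3, the pairs that shared low counts. With shared low counts set to 0, a step that by construction removes counts common to libraries at unequal levels, rho was -0.08 to -0.006 within CT6, 0.02 to 0.03 within CT18 and -0.10 to 0.05 between the times. In the same setting, 94.4% of the 2197 fragments listed over 1 Mb away were in 1 library, against 45.2% as deposited, and the number in all 6 libraries was 1 against 75.

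**Figure D5:**
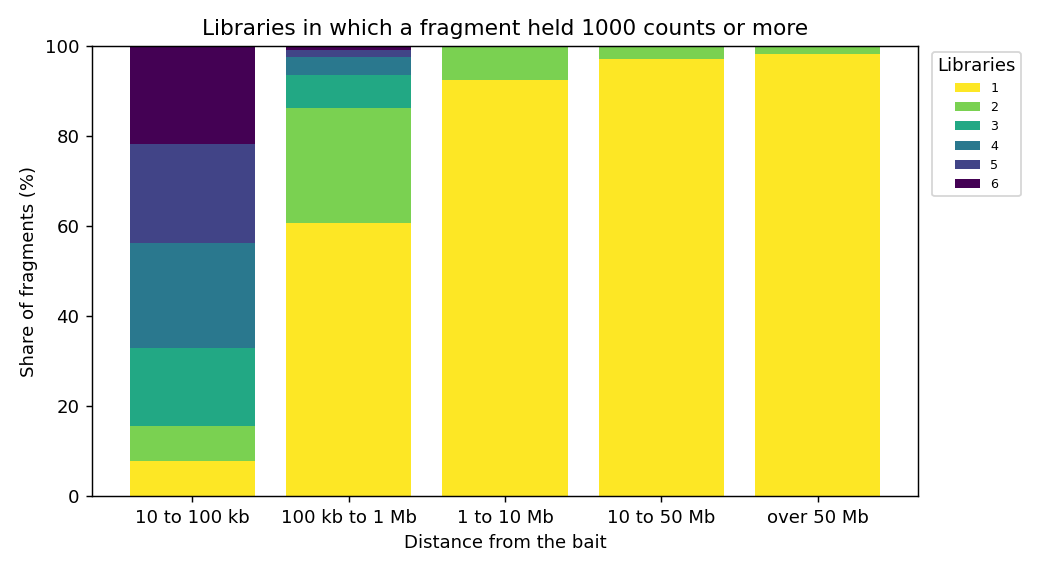
Of the fragments with at least 1000 counts in any library, the share (y axis, percent) that reached 1000 counts in 1 to 6 libraries (colours), by distance from the bait (x axis). The share in 1 library only is 7.81% at 10 to 100 kb and 98.1% over 50 Mb.

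The number of fragments detected did not separate the times. After every library was thinned to 723564 counts outside the bait, 910, 869 and 1064 fragments were detected at CT6 and 987, 1128 and 711 at CT18 (exact p = 1.0). The lowest and the highest number thus both belonged to CT18 libraries. Counting only fragments with at least 10 counts, without thinning, gave 320, 503 and 316 at CT6 and 662, 833 and 454 at CT18 (exact p = 0.2). Depth differed between the libraries in the same direction, and its part in this was not tested. Between 36 and 65 fragments held 50% of a library's counts outside the bait and its neighbour.

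The distant windows most above others at their distance were chosen on the mean over all 6 libraries, without regard to time. Relative to the median of the 40 windows nearest in distance, the 10 highest stood at 26.6 to 69.2 times that median. The highest, chr5:78200001-78300000, rested on CT6 replicate 1, with 8422 counts there and 1 to 7 in the other libraries. Window chr5:97100001-97200000 was high in both times, with 4, 841 and 9106 counts at CT6, and at CT18 10, 6594 and 8515 (adjusted p = 0.924). Window chr5:134400001-134500000 likewise held 2, 1253 and 5478 against 8, 8454 and 1. Window chr5:148800001-148900000 was high at CT6, with 990, 3593 and 3504 counts against 2, 1 and 1 at CT18 (adjusted p = 0.259 by edgeR and 2.9e-08 by DESeq2, which called it). DESeq2 gave smaller adjusted p-values to windows with counts in 1 library alone, such as 3.4e-09 for chr5:14100001-14200000. Window chr5:91200001-91300000 was high in CT18 replicates 1 and 2 only, with 2998 and 3989 counts. Of the 10 windows, 4 reached 1000 counts in 1 library, 4 in 2 and 2 in 3, and none did in more.

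A few distant windows were high in most libraries. Of 988 windows over 1 Mb away with any count, 558 held at least 1000 counts in some library, and in 392 of these (70.3%) that was 1 library. In 11 windows it was 4 libraries, and in 1 window it was all 6. That window was chr5:7900001-8000000, 1.09 Mb from the bait, with 0.383%, 0.301% and 0.405% of the library at CT6 and 0.0612%, 0.293% and 0.936% at CT18 (log2 0.24, adjusted p = 0.932). The CT18 libraries there spanned values below and above all CT6 libraries. Among the 11, chr5:7600001-7700000, 1.39 Mb away, took 0.00970%, 0.000432% and 0.134% at CT6 and 0.434%, 0.340% and 0.387% at CT18. These did not overlap, beside 6.75% of all windows tested that were higher at CT18 in this way, and the adjusted p was 0.402. Further out, chr5:38900001-39000000, 29.9 Mb away, held 2, 3589 and 7 counts at CT6, and at CT18 4814, 3637 and 3376 (adjusted p = 0.721). CT6 replicate 2 there was as high as the CT18 libraries. These 2 of the 11 were singled out after their values were seen. Of the others, chr5:4900001-5000000, chr5:5000001-5100000, chr5:5200001-5300000 and chr5:20300001-20400000 had negative log2 differences (-0.94, -0.28, -1.27 and -0.88). The rest had positive ones.

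Gene positions in mm9 were not used here, so windows and fragments are given by coordinate. In the RefSeq annotation of another build, GRCm38.p6, the protein-coding neighbours of Crot are, towards the chromosome start, Abcb4, Abcb1b and Abcb1a, and towards the chromosome end Tmem243 and Dmtf1. RNA of these genes was measured in other mice and at other times, CT0 and CT12, in the 3 plus 3 control livers of the Bmal1 experiment, and is given as RPKM (reads scaled to transcript length and sequencing depth) without a test. Crot stood at 260.3, 337.4 and 325.3 RPKM at CT0 and 117.5, 103.7 and 162.5 at CT12, every CT0 value above every CT12 value. Abcb4, the phospholipid exporter of the bile canaliculus, stood at 62.1 ± 6.44 and 70.4 ± 3.03 RPKM (SD, n = 3). The drug exporters Abcb1a and Abcb1b stood at 0.820 ± 0.188 and 0.381 ± 0.093 RPKM at CT0 and at 2.12 ± 0.528 and 0.614 ± 0.251 at CT12. They are close paralogs, between which reads may be shared. Tmem243 stood at 46.8 ± 1.73 and 47.7 ± 1.12 RPKM, and Dmtf1, a transcription factor gene, at 5.90 ± 0.384 and 4.41 ± 0.392. Separation of the times was not particular to Crot among these genes. Dmtf1 was higher in every CT0 liver than in any CT12 liver, and Abcb4 and Abcb1a were lower. Values of Abcb1b and Tmem243 overlapped between the times. Among the other listed genes of the region, those of Slc25a40, Dbf4, Sri, Steap4, Cyp51 and Akap9 overlapped too, and Gatad1 was higher in every CT12 liver. The share of all genes that separate in this way is not given here, so no excess can be read from these genes. Of the 16 listed genes of the region 15 matched a symbol, and 12 had a mean of at least 1 RPKM.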

How the data were processed

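Raw counts per HindIII fragment were deposited by the authors, 1 file per 4C library, with fragments without a count left out. Bowtie, TopHat2, bedtools 2.19.1 and mm9 are named in the submitters' processing notes, without their roles, and read filters are not stated there. RPKM values per transcript were deposited by the authors for the control livers, per the file headers. Neighbouring fragments lay at least 6 bases apart, the length of a HindIII site, so starts were read as 0-based and are printed 1-based.

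Counts were summed in windows of 100 kb by fragment midpoint. Windows or fragments with a mean of at least 10 counts were tested with edgeR 4.0.16 (quasi-likelihood, no TMM, library total as offset, two-sided, Benjamini-Hochberg, threshold 0.05). Log2 differences are CT18 relative to CT6. Single values per library were tested by exact permutation with scipy 1.17.1. DESeq2 1.42.0 with its own scaling, other scalings, filters and window sizes, and leaving out each library were alternatives. The size of change that the edgeR fit can detect at the spread of these libraries was not tested. A lack of windows called by edgeR therefore does not show that the times were alike.

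The regions named were the bait, those with the 3 smallest p in each direction where none was called, the 10 distant windows highest relative to their distance, and others said to be singled out. Listed genes on chromosome 5 were not placed in windows, since their mm9 positions were not used here. A gene with several transcripts is shown in RPKM by the one highest on average on the log2 scale. The comparison and lists were chosen with earlier results of these data known.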

Additional observations from a re-analysis of the deposited data

How the results depend on the processing

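Counts of windows and fragments called by edgeR were 0 under every alternative scaling, filter and left-out library run, except for 1 window called lower with TMM factors (that of the bait) and 1 lower with windows of 1 Mb. The latter, chr5:116000001-117000000, held 74, 210 and 95 counts at CT6 and 0 in each CT18 library (adjusted p = 0.0189). DESeq2 called 61 windows (25 higher, 36 lower) and 85 fragments (50 higher, 35 lower). It gave no adjusted p to 608 of the 815 windows and to 1615 of the 1851 fragments. It used its own scaling between libraries, so its splits are not of shares of the library. The cause of the difference from edgeR was not tested. The log2 difference of the bait's window turned to -1.20 with TMM factors, -0.00033 with the bait left out of the total and -2.24 with DESeq2. That of the bait's neighbour turned to -1.0015 with TMM and -1.47 with DESeq2, and ran from -0.053 (without CT18 replicate 2) to 0.24 with 1 library left out.

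The difference in the share within 10 kb turned from 1.68 to -0.319 percentage points with fragments capped at the 99th percentile, and that of the slope from -0.06 to 0.12 over 100 kb to 10 Mb. The difference in fragments detected was -5.67 after thinning. It was 129.3 without thinning, 188.7 at 3 counts or more, 270.0 at 10 counts or more without thinning and 128.0 with shared low counts set to 0, and between -98.7 and 109.8 with 1 library left out. The limit of 10 counts, setting shared low counts to 0 and leaving the bait and its neighbour out of the total were chosen after seeing the data. Leaving out 1 library kept the difference over 50 Mb between -11.1 and -6.17 percentage points and that of the bait between -4.48 and -2.76. With fragments capped, the bait stood at -0.205 (exact p = 0.5), since the cap lowers the bait in every library. With 1 library left out, the difference ran from 0.980 to 2.60 within 10 kb, 3.04 to 7.88 at 10 to 100 kb, 0.0614 to 1.92 at 100 kb to 1 Mb, 0.688 to 1.80 at 1 to 10 Mb and 0.658 to 2.33 at 10 to 50 Mb.

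With replicate number as a block, 0 windows and 0 fragments were called, with 10 windows at an unadjusted p under 0.05. For the shares, the slope and the number detected, the block alters the p-value only. The difference in means is the same by construction, so its direction could not change. The labels do not tie the numbers to mice or days, and libraries of the same number did not deviate together across windows (correlations -0.002, -0.059 and -0.013). With counts from PCR reads without molecular identifiers, depth sets counting error only, and the number of independent ligations behind a distant count is unknown.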
